A study of Mus musculus with 47 samples.

Results

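The guanylate-binding proteins were followed across postnatal development of the mouse olfactory epithelium, the nasal lining in which the sensory neurons for odors sit. The set was 8 genes, Gbp2, Gbp3, Gbp4, Gbp5, Gbp6, Gbp7, Gbp8 and Gbp9, taken by symbol from a table of 54532 genes that held 12 Gbp symbols in all. The genes were chosen by family, with their Kir against WT fold changes in these libraries (groups defined below) in view, so that comparison is given for them as levels and fold changes, with no test. Polyadenylated RNA was sequenced from 47 libraries in 14 groups. Wild-type libraries (WT, strain label C57BL/6J) numbered 23, with 4 each at P0 and P7 (postnatal day 0 and 7) and 3 each at P3, P5, P10, P14 and P21. The other 24 libraries carried the strain label OIVT;Kir2.1 (Kir), with 4 each at P0, P7 and P10 and 3 each at P3, P5, P14 and P21. The gene Kcnj2 encodes Kir2.1, a potassium channel of the inward-rectifier class that holds neurons near rest when overexpressed. The labels leave OIVT and the promoter of the channel unexplained. Nor do they tie libraries to separate animals, so p-values measure the spread between libraries, which may be partly technical.

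Guanylate-binding proteins are large GTPases that interferons induce and that defend the interior of the cell. They assemble on the vacuoles of intracellular pathogens and on the surface of cytosolic bacteria, break these open and help to start the inflammasome. Interferon-gamma, in part through the transcription factor IRF1, is their best known inducer, and type I interferons induce them as well. Gbp2 and Gbp5 carry a lipid anchor site at the C-terminus that ties them to membranes, and Gbp5 is known for its part in activation of the NLRP3 inflammasome. Gbp7 is known for its part in delivering the phagocyte oxidase to bacterial vacuoles. Gbp3 and Gbp6 belong to the same inducible family, and Gbp4, Gbp8 and Gbp9 are less studied.

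The members lie in 2 clusters of the mm10 (GRCm38) genome, as placed by GENCODE. On the plus strand of chromosome 3 lie Gbp5 (chr3:142493978-142522344), Gbp7 (chr3:142530342-142550149), Gbp3 (chr3:142560026-142573209) and Gbp2 (chr3:142620602-142638008). On the minus strand of chromosome 5 lie Gbp8 (chr5:105014150-105139540), Gbp9 (chr5:105077630-105139539), Gbp4 (chr5:105115767-105139586) and Gbp6 (chr5:105270702-105293698). In the annotation, 60 or 61 exonic bases of each of Gbp4, Gbp8 and Gbp9 are shared among these genes. All 8 are annotated as protein-coding.

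Promoters are shown for those members that had a promoter entry, all of them in the chromosome 3 cluster. RefSeq promoter entries (GRCm38.p6, plus strand) were matched for 4 of the 8 members, Gbp2, Gbp3 (2 entries), Gbp5 and Gbp7. The 250 bases before each start were searched on both strands for GAAANNGAAA, the core of the interferon-stimulated response element (ISRE), and for TTCNNNGAA, the palindromic gamma-activated site (GAS) of interferon-gamma responses. An ISRE core lay in 4 of the 5 entries, against 2.98% of 32851 mouse promoters searched in the same way. A GAS lay in 2 of the 5, against 7.02% of promoters. Each line below gives a stretch around the ISRE core, 5′ to 3′ on the plus strand, with the core (read here as its reverse complement) in capitals.
Gbp2: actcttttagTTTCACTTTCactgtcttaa
Gbp3: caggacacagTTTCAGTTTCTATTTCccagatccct
Gbp5: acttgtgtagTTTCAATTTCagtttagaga
Gbp7: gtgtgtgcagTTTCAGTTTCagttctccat
Gbp2b: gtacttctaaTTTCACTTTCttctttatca
The core began 59 bases before the RefSeq start in Gbp2 (chr3:142620594-142620623) and 53 bases before it in Gbp7 (chr3:142530273-142530302). In Gbp5 it began 165 bases before the start (chr3:142496759-142496788). Gbp3 held 2 overlapping cores, 45 and 39 bases before the start (chr3:142559989-142560024). Gbp2b, a neighbour that is not a member, held the same core as Gbp2, 137 bases before its start (chr3:142594700-142594729). In Gbp2, 22 of the 30 bases shown also lie in an exon that GENCODE annotates from an earlier start. The Gbp7 promoter, which holds both kinds of site, is shown whole (chr3:142530086-142530335), with 2 GAS and then the ISRE core in capitals.
Gbp7 promoter: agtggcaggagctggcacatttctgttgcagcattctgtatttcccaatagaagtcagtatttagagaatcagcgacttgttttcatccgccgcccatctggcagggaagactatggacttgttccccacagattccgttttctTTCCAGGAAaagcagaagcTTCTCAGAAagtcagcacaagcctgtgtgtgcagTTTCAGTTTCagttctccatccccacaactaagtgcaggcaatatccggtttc
A match of letters is a description of the sequence, not a measured binding site.

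Gene counts per library ran from 8107547 to 30385151. Kcnj2 was 8.93 to 31.16 TPM in WT and higher in all 24 Kir libraries. It was 33.03 to 64.56 TPM in 5 of them (Kir P3 replicate 3, P7 replicates 1 and 4, P21 replicates 1 and 2) and 108.78 to 448.69 in the other 19. The titles carry a prefix whose meaning is not given. It was cry4 at P0, P3, P14 and P21 and cry6 at P5 and P10, while each genotype at P7 had 1 cry4, 2 cry6 and 1 cry3 library. WT P0 replicate 3 has P0 in its title but P3 in its stage label, and was kept in P0. Markers of mature sensory neurons such as Omp, of sustentacular cells and of macrophages were all present.

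Averaged over the libraries of all ages, Gbp3 had the highest level of the 8 in both genotypes on the TPM scale, which corrects for gene length and library size. Mean TPM over the WT libraries fell in the order Gbp3 (2.40), Gbp2 (1.74), Gbp7 (1.06), Gbp9 (0.749), Gbp6 (0.578), Gbp5 (0.357), Gbp4 (0.340) and Gbp8 (0.121). Over the Kir libraries the order was Gbp3 (16.4), Gbp2 (4.12), Gbp7 (3.64), Gbp6 (3.02), Gbp9 (1.25), Gbp5 (1.22), Gbp4 (0.499) and Gbp8 (0.146). In WT the lead of Gbp3 was not seen at every age, since Gbp2 had the higher group mean at P3 (1.69 against 1.31) and at P21 (2.87 against 2.28), and it was widest at P0 (4.82 against 1.66). In these means over ages, the first 3 places and the last 2 were held by the same genes in both genotypes. Gbp3 made up 22.5% (WT P3) to 39.2% (WT P5) of the summed TPM of the 8 genes in the WT groups. In Kir its share ran from 32.8% ± 6.20 (SD, n = 4) at P0 to 60.3% ± 5.93 (SD, n = 4) at P10.

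**Figure D1:**
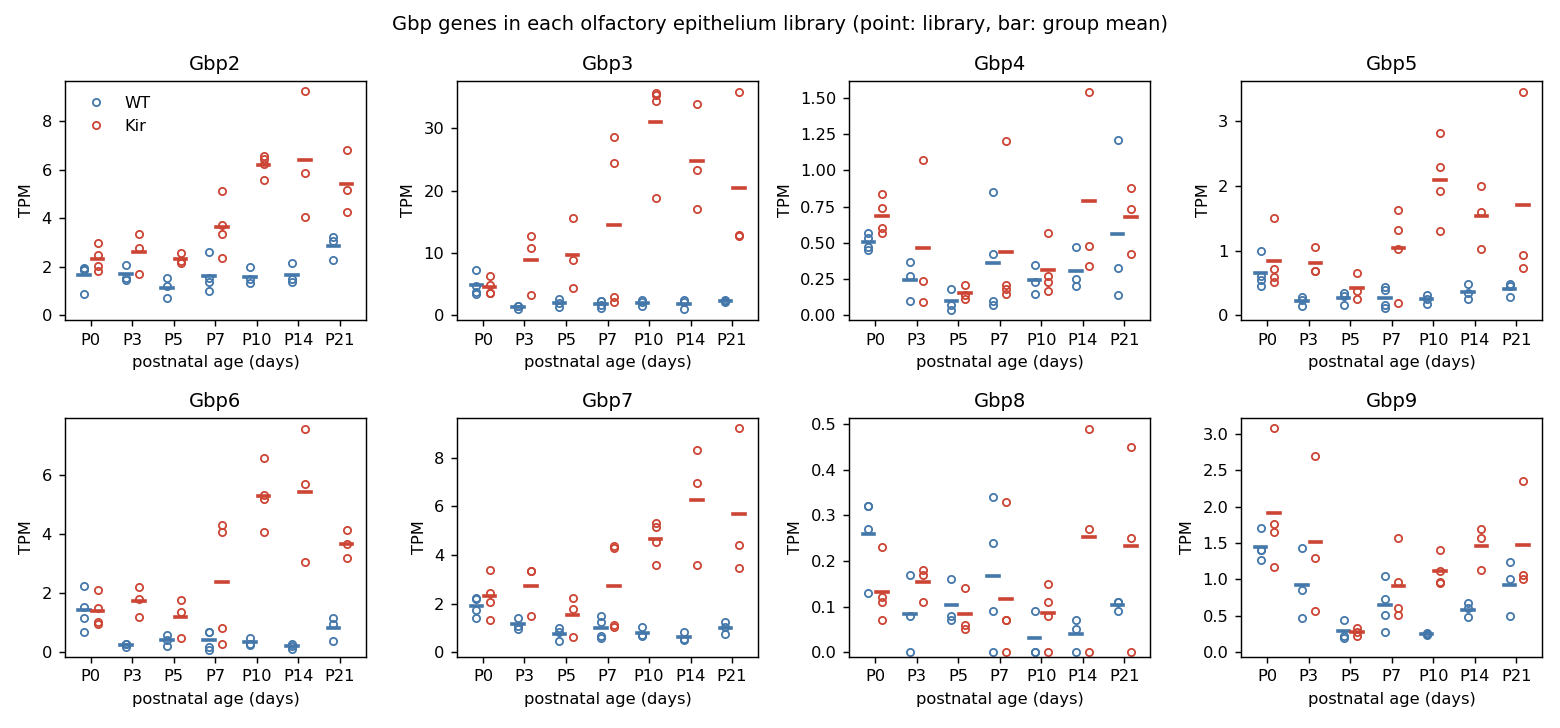
TPM of each of the 8 genes (y axis, linear, its own scale per panel) against postnatal age (x axis) in WT (blue) and Kir (red), with a point for each library and a short bar for each group mean. Gbp3 in Kir at P10 lies at 18.77 to 35.74 TPM against 1.50 to 2.46 in WT, while the points for Gbp4 and Gbp8 overlap between genotypes at every age.

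Gbp3 was alike in the genotypes at birth and far apart from P10 on. At P0 the 4 WT libraries read 3.78, 7.36, 3.51 and 4.64 TPM and the 4 Kir libraries 6.29, 3.61, 4.89 and 3.63. The ranges overlapped throughout, and the log2 fold change in counts, Kir against WT, was -0.02 ± 0.48 (SE). At P3 the WT libraries read 1.43, 1.53 and 0.96 TPM and the Kir libraries 12.81, 10.73 and 3.23, every Kir library being above every WT library. At P5 WT read 1.29, 2.66 and 2.05 and Kir 4.45, 8.90 and 15.55, again with no overlap. At P7 WT read 2.37, 1.70, 1.15 and 2.31. The Kir libraries at P7 split, with 28.65 and 24.49 in replicates 2 and 3 and 2.89 and 2.21 in replicates 1 and 4, which lay near the highest WT values. At P10 WT read 2.18, 1.50 and 2.46 TPM and Kir 18.77, 35.74, 34.44 and 35.39. That was a mean of 31.1 in Kir and 2.05 in WT, a ratio of 15.2, and a log2 fold change in counts of 4.07 ± 0.56 (SE). At P14 WT read 2.44, 1.05 and 2.11 and Kir 23.33, 33.95 and 17.09. At P21 WT read 2.45, 2.10 and 2.28 and Kir 12.75, 12.91 and 35.84, the highest Gbp3 value of the 47 libraries. The log2 fold change in counts was 3.85 ± 0.60 at P14 and 3.45 ± 0.59 at P21, with no overlap of the TPM at either age.

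Gbp2 and Gbp7, the other abundant members of the chromosome 3 cluster, showed smaller differences along the same course. Gbp2 at P10 read 1.49, 1.32 and 1.98 TPM in WT and 6.23, 6.58, 5.59 and 6.42 in Kir. Its log2 fold change in counts was 0.42 ± 0.33 (SE) at P0, 1.998 ± 0.34 at P10 and 1.02 ± 0.36 at P21. At P21 the WT level was itself higher, at 3.24, 3.08 and 2.28 TPM, against 4.27, 5.18 and 6.79 in Kir. Gbp7 at P14 read 0.81, 0.54 and 0.51 TPM in WT and 6.94, 8.30 and 3.59 in Kir, a ratio of means of 10.1. Its log2 fold change was 0.27 ± 0.37 at P0, 2.53 ± 0.41 at P10, 2.84 ± 0.45 at P14 and 2.43 ± 0.44 at P21. Gbp5 was low throughout, 0.11 to 0.99 TPM in WT and 0.19 to 3.45 in Kir. At P10 it read 0.31, 0.17 and 0.26 TPM in WT and 2.29, 2.82, 1.31 and 1.92 in Kir, with a log2 fold change of 2.76 ± 0.50. Groups of Gbp2, Gbp5 and Gbp7 did not overlap at P10, P14 or P21.

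Of the chromosome 5 members, Gbp6 differed most between genotypes and Gbp4 and Gbp8 least. Gbp6 at P14 read 0.29, 0.21 and 0.10 TPM in WT and 5.69, 7.58 and 3.06 in Kir. At P0 it read 1.54, 1.17, 0.68 and 2.26 in WT and 2.10, 1.03, 0.94 and 1.48 in Kir, with full overlap. Its counts were few, 0 to 28 reads per library and 3.31 reads per TPM unit, against 15.7 to 39.8 for the other members. Of the 50-base words of its longest transcript, 59.7% occur in transcripts of other genes and 51.5% in Gm43302, an annotated gene that overlaps Gbp6 and Gbp10 on the same strand. Gm43302 had 0 counts in the 47 libraries, yet up to 0.46 TPM in WT and 2.52 in Kir in the RSEM table. The level of Gbp6 is therefore uncertain, and its log2 fold change in counts of 4.54 ± 1.02 (SE) at P14 has a wide error. Gbp9 at P10 read 0.26, 0.25 and 0.24 TPM in WT and 1.12, 1.40, 0.95 and 0.97 in Kir, while at P5 both genotypes were low, at 0.44, 0.20 and 0.22 in WT and 0.33, 0.22 and 0.28 in Kir. Gbp4 ran from 0.04 to 1.21 TPM in WT and from 0.09 to 1.54 in Kir, and its groups overlapped at all 7 ages. Gbp8 had at most 7 reads in a library and was listed at 0 TPM in 5 WT and 4 Kir libraries, so no difference was detectable at this depth.

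Averaged over the 7 ages, the log2 fold change in counts (Kir against WT, ± SE) was 2.65 ± 0.21 for Gbp3 and 2.22 ± 0.36 for Gbp6. It was 1.71 ± 0.16 for Gbp7, 1.68 ± 0.20 for Gbp5 and 1.24 ± 0.13 for Gbp2. For Gbp9 it was 0.98 ± 0.15 and for Gbp4 0.67 ± 0.21. These 7 genes are those that passed the filter on low counts, which Gbp8 did not. The filter asks for the count cutoff in 3 libraries, the smallest group size. Gbp6 reached it in 6 Kir libraries and 1 WT library, so it passed only through the genotype in which it was high. Gbp5 reached it in 22 Kir and 9 WT libraries, more often in Kir but enough in WT alone. The number of the 8 genes with every Kir library above every WT library was 0 at P0, where this held for 0.796% of 28386 genes. It was 4 at P3 (4.64% of genes), 2 at P5 (4.32%), 0 at P7 (0.539%), 6 at P10 (3.51%), 6 at P14 (4.66%) and 5 at P21 (6.05%).

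**Figure D2:**
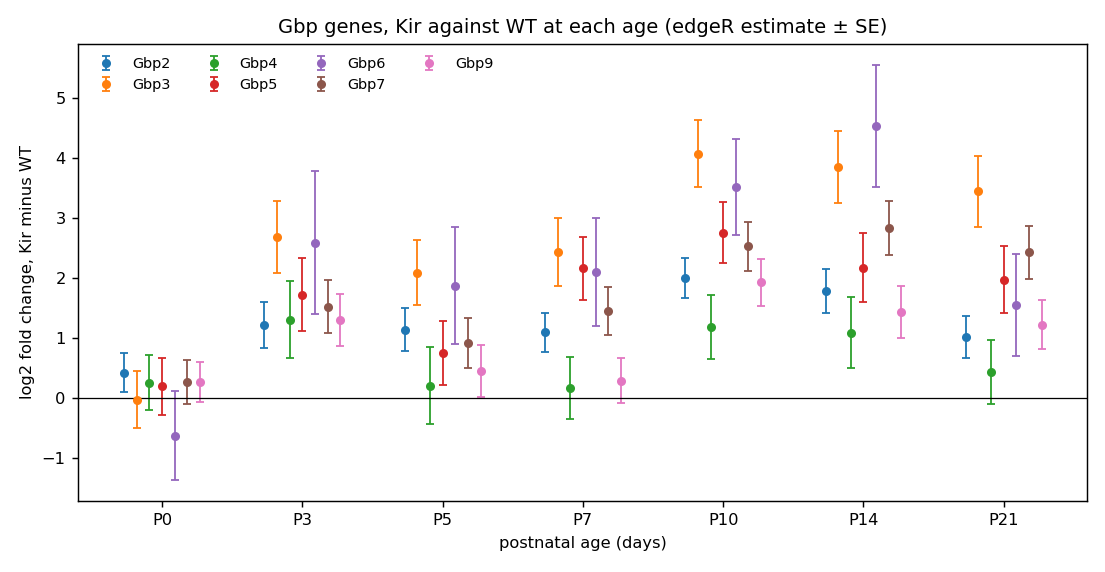
Log2 fold change in counts, Kir minus WT (y axis, edgeR estimate ± SE), for the 7 Gbp genes that passed the filter, at each postnatal age (x axis). Estimates lie near 0 at P0 (-0.63 to 0.42), and Gbp3 (orange) reaches 4.07 at P10.

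The summed TPM of the 8 genes placed the groups in one order. Kir P10 came first (50.8 ± 9.66, SD, n = 4), then Kir P14 (46.9 ± 15.7, n = 3), Kir P21 (39.4 ± 20.2, n = 3), Kir P7 (25.8 ± 18.7, n = 4), Kir P3 (18.9 ± 8.77, n = 3), Kir P5 (15.6 ± 7.39, n = 3) and Kir P0 (14.2 ± 4.02, n = 4). WT P0 followed at 12.6 ± 2.90 (n = 4). Below it were WT P21 (8.97 ± 1.48, n = 3), WT P7 (6.36 ± 2.76, n = 4), WT P3 (5.85 ± 1.09, n = 3), WT P14 (5.66 ± 1.29, n = 3), WT P10 (5.56 ± 1.04, n = 3) and WT P5 (5.06 ± 1.42, n = 3). Of the 13 steps between neighbours in this order, 12 joined groups whose libraries overlapped. The exception was the step from WT P0 (10.18 to 15.95) down to WT P21 (7.28 to 10.06). The sum weighs the genes by abundance and so follows Gbp3 closely.

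**Figure D3:**
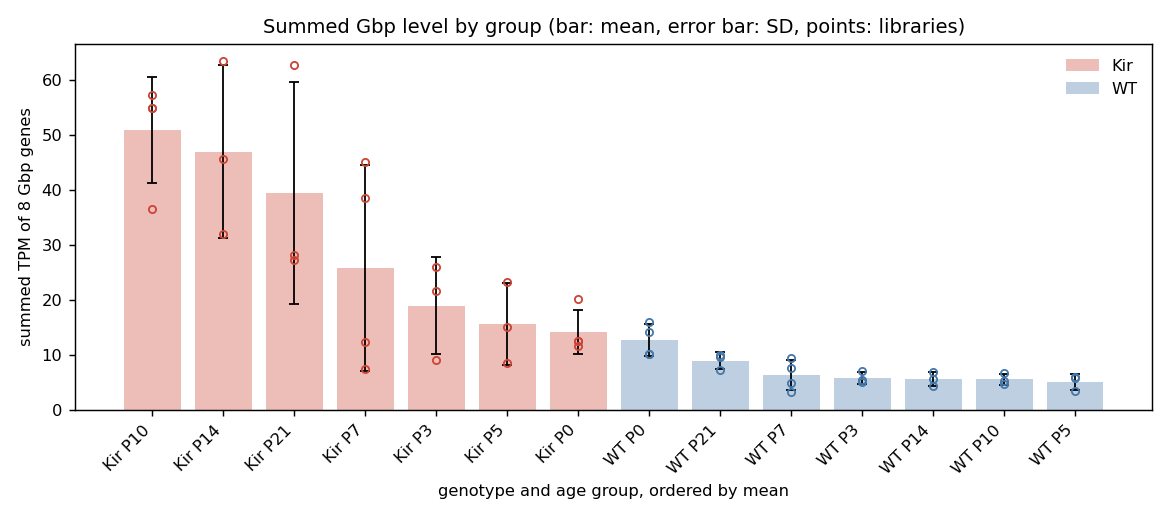
Summed TPM of the 8 Gbp genes (y axis, linear from 0) in the 14 groups ordered by mean (x axis), as means (bars) with SD (error bars) and single libraries (points). The 3 highest groups are Kir P10, P14 and P21, and WT P0 at 12.6 is the highest WT group.

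Within WT, the summed Gbp level was highest at birth. The tests below set WT ages against each other, but the edgeR fit drew its spread and count filter from all 47 libraries, Kir included. Between P0 and P21, both sequenced under the prefix cry4, edgeR's quasi-likelihood test (Benjamini-Hochberg adjusted over 19927 genes) called 2 of the 7 tested members, both lower at P21. Of all genes, 50.8% were called between these ages and 26.8% were lower at P21, so 2 of 7 is near the share of all genes. Gbp9 read 1.40, 1.40, 1.27 and 1.71 TPM at P0 and 1.24, 1.01 and 0.50 at P21, and its counts fell by 1.12 ± 0.39 (SE) on the log2 scale, adjusted p = 0.0163 by edgeR. Every P21 library was below every P0 library for Gbp9, and also for Gbp3, Gbp7 and Gbp8, as for 13.5% of genes. Gbp7 read 1.41, 2.17, 1.72 and 2.21 TPM at P0 and 1.04, 1.23 and 0.76 at P21, and its counts fell by 1.05 ± 0.43 on the log2 scale, edgeR adjusted p = 0.0396. Gbp3, at 3.51 to 7.36 TPM at P0 and 2.10 to 2.45 at P21, had a log2 fold change of -1.31 ± 0.56 with an edgeR adjusted p = 0.0517, and so missed the threshold of 0.05. That value also moved with Kir libraries, to an edgeR adjusted p = 0.0448 without Kir P3 replicate 3. DESeq2 called Gbp3 (adjusted p = 0.0354), while limma on log2(TPM + 1) did not (adjusted p = 0.220). Gbp2 had the opposite sign, at 0.61 ± 0.35 (adjusted p = 0.144), and all of its P21 libraries (2.28 to 3.24 TPM) were above its P0 libraries (0.88 to 1.97), as for 18.1% of genes. The median log2 fold change of the 7 was -0.97, against -0.05 over all genes tested. Without WT P21 replicate 3 neither call was made (Gbp9 adjusted p = 0.106, Gbp7 adjusted p = 0.154, edgeR), and limma on log2(TPM + 1) called 0 of the 8, where it called 31.9% of all genes. Fewer cells of a type and less RNA per cell cannot be told apart in these bulk libraries.

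Between P0 and P3 in WT, all 3 P3 libraries were below all 4 P0 libraries for Gbp3, Gbp4, Gbp5, Gbp6 and Gbp7, which held in that direction for 6.62% of genes. Gbp6, for example, read 0.26, 0.16 and 0.26 TPM at P3 against 0.68 to 2.26 at P0. These were not the genes called at P21, apart from Gbp7. Gbp9 overlapped between P3 (0.47 to 1.43 TPM) and P0 (1.27 to 1.71). WT P0 replicate 3, which holds the 0.68 TPM of Gbp6, has P3 in its stage label. Were it placed in P3, Gbp5 (0.54 TPM, against 0.46 in WT P0 replicate 1) and Gbp7 would overlap between P0 and P3. Gbp3, Gbp4 and Gbp6 would not. Between WT P5 and P10, both under the prefix cry6, edgeR called 0 of the 7 members (0 at an unadjusted p below 0.05), and DESeq2 and limma also called 0. Over all genes 1.93% were called by edgeR, 3.26% by DESeq2 and 0.289% by limma. Over the same span from P0 to P21, markers of endothelial cells were lower in WT for 5 of 5 genes (median log2 fold change -1.92), macrophage markers were lower for 3 of 9 (median 0.03), and markers of mature sensory neurons were higher for 6 of 6 (median 2.35). Of all genes, 50.8% were called over this span and 26.8% were lower at P21. The part of the marked cell types in the Gbp levels was not tested.

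In Kir, Gbp3, Gbp2 and Gbp7 were higher at P21 than at P0. For Gbp3 and Gbp7 the sign was the opposite of that in WT, while Gbp2 had a positive estimate in both genotypes. Between P0 and P21 edgeR called 3 of the 7, all higher at P21, where 22.9% of all genes were called higher. Gbp3 read 6.29, 3.61, 4.89 and 3.63 TPM at P0 and 12.75, 12.91 and 35.84 at P21, and its counts rose by 2.16 ± 0.49 (SE) on the log2 scale, edgeR adjusted p = 0.000409. Gbp2 read 2.96, 2.48, 1.81 and 2.02 at P0 and 4.27, 5.18 and 6.79 at P21, with a log2 fold change of 1.20 ± 0.33 and an edgeR adjusted p = 0.00279. Gbp7 read 3.40, 2.44, 1.33 and 2.06 at P0 and 3.45, 4.42 and 9.21 at P21, with 1.12 ± 0.38 and an edgeR adjusted p = 0.0139. All P21 libraries of these 3 genes, and of Gbp6, were above all P0 libraries, as for 15.8% of genes. Gbp7 depended on single libraries, with an adjusted p = 0.206 by edgeR without Kir P21 replicate 3 and 0.0515 without Kir P0 replicate 3. Gbp5 (1.09 ± 0.48, adjusted p = 0.0577, edgeR) and Gbp6 (1.21 ± 0.75, adjusted p = 0.189) did not pass. On the TPM scale Gbp6 was called, at 0.94 to 2.10 TPM at P0 and 3.19 to 4.15 at P21. Its adjusted p was 0.0148 by limma on log2(TPM + 1), which called 8471 of 28386 genes. Gbp9 (-0.16 ± 0.36) and Gbp4 (-0.09 ± 0.49) had estimates near 0. Results from the Kir libraries were known when the set was drawn up, so these calls and those of the next comparison are no independent support for it.

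Whether the Kir minus WT difference itself varied with age was tested over the 7 ages. Gbp3 was called (edgeR adjusted p = 0.0179), as were 0.381% of all genes. Gbp7 (adjusted p = 0.0783, edgeR) and the other 5 members tested (adjusted p of 0.369 or above) were not. The difference for Gbp3 at P21 was larger than that at P0 by 3.47 ± 0.75 (SE) on the log2 scale of counts (edgeR adjusted p = 0.0247), a contrast called in 0.286% of genes. For Gbp7 the same contrast was 2.17 ± 0.57 (adjusted p = 0.120). The call for Gbp3 was lost without the prefix term (adjusted p = 0.0634, edgeR) and on the TPM scale (adjusted p = 0.0789, limma on log2(TPM + 1)), where Gbp6 was called instead (adjusted p = 0.0245, limma, with 0.208% of genes called). It was also lost without WT P0 replicate 2 or without Kir P0 replicate 2, 3 or 4 (adjusted p of 0.0513 to 0.0590, edgeR). Without the 5 Kir libraries of low Kcnj2, edgeR called 3 members, Gbp3, Gbp5 and Gbp7. That fit holds 1 Kir library at P21, assumed to vary like the other groups, and 2 each at P3 and P7, and the libraries left out were the lowest of their groups in summed Gbp.

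The 5 Kir libraries of low Kcnj2 had the lowest summed Gbp level of their groups at P3, P7 and P21, a sum in which Gbp3 weighs most. At P7 Kir replicates 1 and 4 had Kcnj2 at 46.14 and 52.84 TPM and summed Gbp at 7.48 and 12.29, whereas replicates 2 and 3 had Kcnj2 at 207.09 and 320.45 and summed Gbp at 44.97 and 38.43. The 4 WT P7 sums were 9.50, 4.92, 3.34 and 7.69, so replicate 1 lay among them. Prefix runs along with this split, since replicates 2 and 3 are cry6, replicate 1 cry4 and replicate 4 cry3. Within the prefix at P7, the Kir to WT ratio of summed TPM was 10.1 in cry6 (2 libraries a genotype), 0.787 in cry4 and 1.60 in cry3 (1 library a genotype each), against 4.05 with all pooled. For Gbp3 the ratios were 18.6, 1.22 and 0.957. Kcnj2 level and prefix cannot be told apart in Kir at P7. Not every member followed the sum. Replicate 4 was above replicate 3 for Gbp2 (3.71 against 3.36 TPM) and Gbp5 (1.32 against 1.02), and was the highest of the 4 for Gbp9 (1.57), Gbp4 (1.20) and Gbp8 (0.33). At P3, with 1 prefix, Kir replicate 3 (Kcnj2 33.03) had summed Gbp at 9.13 and the other 2 had 26.05 and 21.60. At P21, also 1 prefix, Kir replicates 1 and 2 (Kcnj2 58.05 and 64.56) had 27.24 and 28.16 and replicate 3 (Kcnj2 286.49) had 62.67. All 3 were above the highest WT P21 sum of 10.06. Gbp6 differed little among these 3, at 3.66, 3.19 and 4.15 TPM. At P0 the 4 Kir libraries had Kcnj2 at 108.78 to 181.20 and summed Gbp at only 11.64 to 20.19. At P14 the order was reversed. Kir replicates 1, 2 and 3 had Kcnj2 at 444.47, 411.74 and 448.69 and summed Gbp at 45.56, 63.31 and 31.92. At P5 Kcnj2 was 193.38, 175.22 and 217.31 in Kir replicates 1, 2 and 3, and summed Gbp was 8.56, 15.04 and 23.31.

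**Figure D4:**
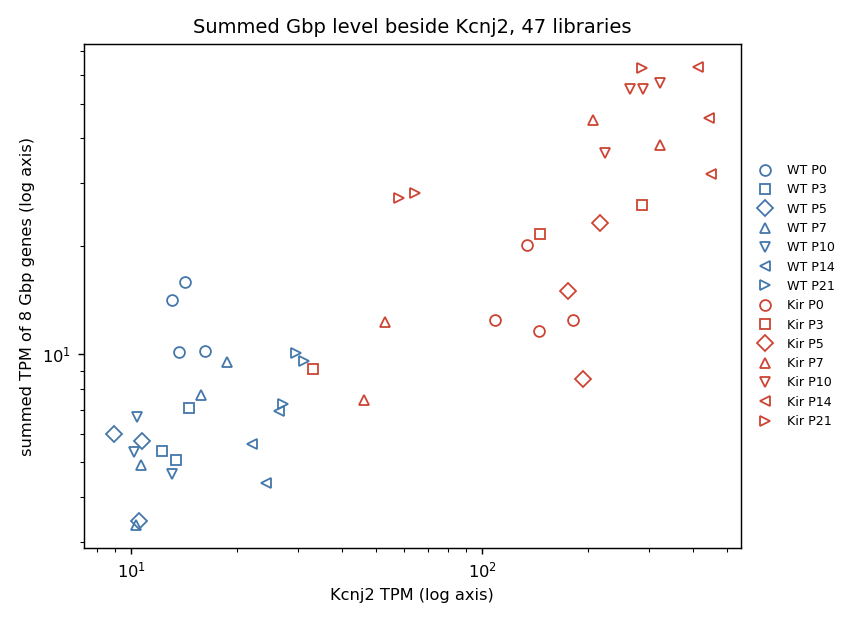
Summed TPM of the 8 Gbp genes (y axis, log) against Kcnj2 TPM (x axis, log) for the 23 WT libraries (blue) and 24 Kir libraries (red), with a marker shape for each age. Kir P7 replicate 1, at Kcnj2 46.14, has a sum of 7.48 among the WT libraries, and Kir P0 libraries lie at 11.64 to 20.19 with Kcnj2 at 108.78 to 181.20.

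Most members tracked one another across the Kir libraries. Spearman's rho of a member with the mean log2(TPM + 1) of the other 7, over the 24 Kir libraries, was 0.937 for Gbp7, 0.925 for Gbp6, 0.902 for Gbp2, 0.838 for Gbp5 and 0.804 for Gbp3. It was 0.292 for Gbp9, 0.158 for Gbp4 and -0.0214 for Gbp8. Over the 23 WT libraries the same measure ran from 0.523 (Gbp2) to 0.811 (Gbp7). Among 18642 other genes with a mean of at least 1 TPM, the 10 most like the mean of the 8 members over the Kir libraries were Iigp1 (0.953), Parp14 (0.944), Phf11d (0.944), Rsad2 (0.940), Irgm2 (0.939), Gm4951 (0.935), Mx2 (0.934), Tgtp2 (0.934), Mx1 (0.932) and Ifi47 (0.929). Iigp1, Irgm2, Tgtp2 and Ifi47 are immunity-related GTPases, Mx1 and Mx2 are antiviral dynamin-like GTPases, and Rsad2 encodes viperin. Libraries share age, prefix and depth, so these values describe likeness over samples and carry no test.

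Of the other genes listed for the pathway, the interferon-inducible GTPases were higher in Kir averaged over ages. All 12 of the 14 listed that could be tested were called higher averaged over ages (edgeR), with a median log2 fold change of 2.24, against 0.01 over all 19927 genes, of which 10.5% were called and 3.12% called higher. At P0 the summed TPM of the 14 overlapped, at 23.66 to 56.76 in WT and 32.93 to 59.03 in Kir. Those called included Irgm1 (1.79 ± 0.14, SE, adjusted p = 1.08e-11, edgeR), Igtp (1.86 ± 0.16, adjusted p = 7.09e-11), Iigp1 (2.77 ± 0.25, adjusted p = 1.94e-10) and Gm4951 (4.33 ± 0.39, adjusted p = 1.97e-10). In WT, 1 of these 12 was called between P0 and P21, lower at P21, as were 26.8% of all genes. In Kir 11 of the 12 were called higher at P21 than at P0, as were 22.9% of all genes. For 5 of them, Irgm1, Irgm2, Igtp, Iigp1 and Tgtp1, the Kir minus WT difference varied with age (edgeR adjusted p of 0.0130 to 0.0393). Of all genes, 0.381% were called in that test. These lists were chosen with earlier results of the same libraries known and are not independent evidence.

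Among genes of interferon signalling, those called higher in Kir encode transcription factors and feedback regulators. Of 16 tested, 7 were called higher and 0 lower in Kir. Irf9 (1.33 ± 0.10, adjusted p = 4.28e-12, edgeR) and Stat2 (1.03 ± 0.10, adjusted p = 1.07e-09) encode parts of the complex that binds the ISRE. Usp18, a brake on the type I receptor, was higher by 2.46 ± 0.21 (adjusted p = 3.77e-11, edgeR). Irf1, which the IFN-gamma pathway uses, was higher by 0.49 ± 0.07 (adjusted p = 8.56e-07, edgeR). The 5 receptor genes Ifngr1, Ifngr2, Ifnar1, Ifnar2 and Ifnlr1 and the kinase genes Jak1, Jak2 and Tyk2 were not called (log2 fold changes of -0.13 to 0.11). Ifng and Ifnb1, the only ligand genes on the list, were each at 0 TPM in 45 of the 47 libraries. No library had more than 1 read of either. Other interferon genes were not examined.

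Among genes for processes that work with the Gbp proteins, the picture was mixed. Inflammasome genes were called higher for 4 of 9, Casp1 (1.03 ± 0.17, adjusted p = 4.47e-05, edgeR), Casp4 (0.98 ± 0.18), Il1b (0.62 ± 0.18) and Gsdmd (0.29 ± 0.08). Aim2, Nlrp3, Nlrc4, Pycard and Il18 were not called. Of the autophagy conjugation genes, which help to target Gbp proteins to vacuoles, 0 of 10 were called by edgeR (0 at an unadjusted p below 0.05). Of the prenylation enzymes that attach the lipid anchor, 0 of 5 were called (0 at an unadjusted p below 0.05). DESeq2 and limma called nearly the same total over the pathway lists, 23 and 22 genes, against 23 of the 52 tested by edgeR.

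**Figure D5:**
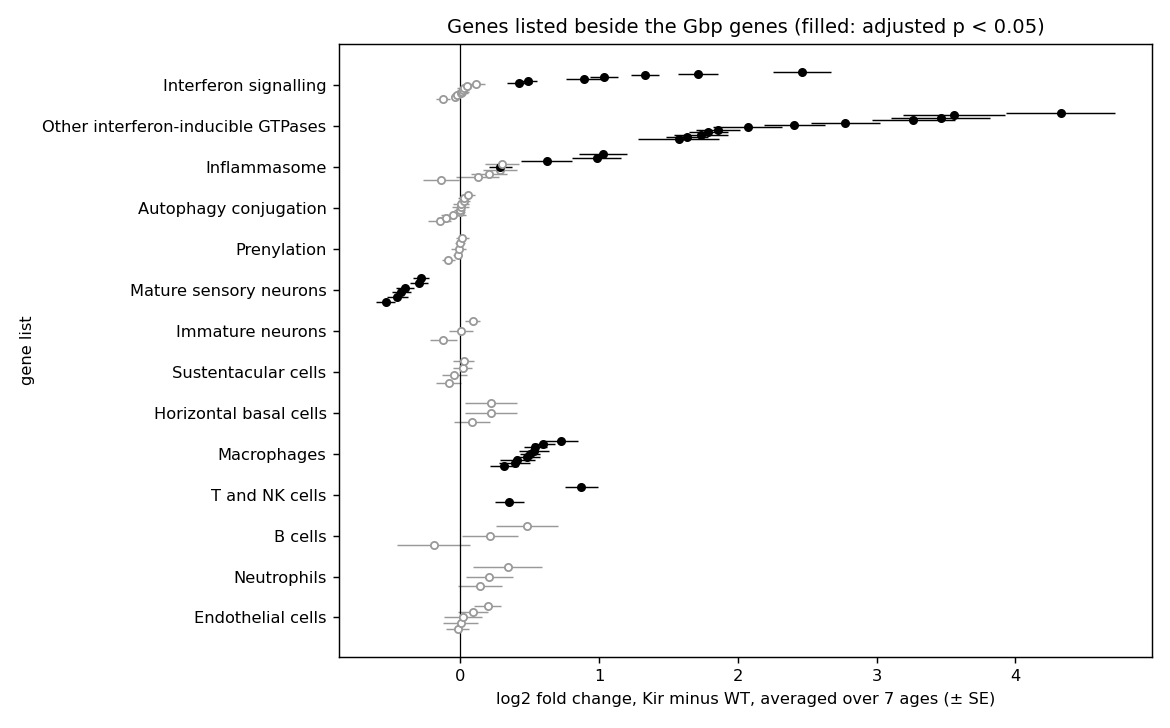
Log2 fold change in counts, Kir minus WT averaged over the 7 ages (x axis, edgeR estimate ± SE), for each tested gene of the pathway and cell marker lists (y axis), filled where the adjusted p is below 0.05. The 12 interferon-inducible GTPases lie at 1.57 to 4.33, macrophage markers at 0.31 to 0.73 and mature sensory neuron markers at -0.54 to -0.28.

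Markers of other cell types moved with genotype as well. All 9 macrophage markers were called higher in Kir (edgeR), as were 3.12% of all genes. The markers had a median log2 fold change of 0.50 and a largest value of 0.73 ± 0.12 for Trem2. Their summed TPM ran from 62.43 to 124.64 in WT and from 75.92 to 181.49 in Kir, and none of the 9 was at 0 in any library. At P10 the macrophage sums were 73.29 to 93.20 in WT and 115.88 to 143.01 in Kir, and at P0 97.71 to 124.64 in WT and 92.66 to 139.80 in Kir. The macrophage difference was not called as varying with age for any of the 9, though 2 were at an unadjusted p below 0.05 by edgeR. Of the 10 T and NK cell markers, 2 had enough reads to be tested, Cd4 (0.87 ± 0.12) and Lck (0.35 ± 0.11), both called higher. The T and NK cell sum was 1.21 to 6.47 TPM in WT and 2.27 to 6.45 in Kir, and Cd8a was at 0 in 23 of the 47 libraries and Cd3e in 20. All 6 mature sensory neuron markers were called lower in Kir, as were 7.43% of all genes, with a median of -0.41, and Omp fell by 0.54 ± 0.07. Endothelial (0 of 5), neutrophil (0 of 3 tested), B cell (0 of 3), immature neuron (0 of 3), sustentacular (0 of 4) and horizontal basal cell markers (0 of 3) were not called by edgeR. At an unadjusted p below 0.05 only the B cell marker Ms4a1 passed among these. The part of these cell types in the Gbp levels was not tested.

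The Gbp genes outside the set had few reads in most libraries, and none of the 4 passed the count filter. Gbp10 was listed at 0 TPM in 18 of 23 WT and 6 of 24 Kir libraries, with a highest value of 1.51 TPM in Kir P21 replicate 3. Its mean in Kir P21 was 0.753 TPM, beside 0.677 for the member Gbp4. Gbp10 had too few reads for the count test. On the TPM scale its log2 fold change averaged over ages was 0.35 ± 0.08 (SE, adjusted p = 0.00264, limma on log2(TPM + 1)), a comparison in which limma called 4.69% of genes. Of its 50-base words, 82.5% are shared with other genes. Gbp2b, which carries an ISRE core as shown above, was at 2.42 TPM (46 reads) in Kir P21 replicate 3 and at no more than 0.09 TPM (2 reads) in each of the other 46 libraries. Gbp11, annotated as a polymorphic pseudogene, reached 0.92 TPM (8 reads) in Kir P14 replicate 3 and 0.23 TPM at most elsewhere. Gbp2-ps was above 0 in 1 WT and 1 Kir library.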

How the data were processed

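Illumina libraries of polyadenylated RNA were made from TRIzol extracts of dissected olfactory epithelium, per the labels' protocols. The submitters' processing notes name bcl2fastq 2.18, STAR 2.6.1c, RSEM and mm10. The authors deposited a table of raw counts and a table of TPM values, per the file headers. No source used here gives the strand setting. Left out of library sizes were 4 deposited lines that name no gene. They held 1.31% to 33.5% of a library as unmapped, 5.17% to 20.6% as mapped to several places, 3.79% to 12.3% as outside features and 2.91% to 3.80% as ambiguous.

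Groups came from the sample titles. Counts were tested with edgeR 4.0.16 in R 4.3.3 (TMM, filterByExpr with a minimum count of 10, quasi-likelihood F test, two-sided) in 1 fit of the 47 libraries with 14 group means and the prefix as a covariate. P-values were Benjamini-Hochberg adjusted over 19927 genes, and a gene is called at an adjusted p below 0.05. TPM were tested with limma 3.58.1 on log2(TPM + 1) over the 28386 genes with a mean of at least 0.1 TPM, and DESeq2 1.42.0 was a further alternative. The filter kept 7 of the 8 members. Fits were tested on simulated data. Of 57 pairs of libraries within groups none held identical values. The main fit did not treat libraries of the same replicate number as pairs. Reads shared by near-identical genes are uncertain in both tables.

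The members and all gene lists were chosen with earlier results of these data known. Genes named in the text were the 8 members, the other Gbp genes, Kcnj2, Ifng, Ifnb1 and Irf1, at most 4 genes of each list with the smallest adjusted p, and the 10 genes most like the members' mean over the Kir libraries. A further gene that this rule names is not reported here. Gm43302, and further genes named to complete a small count, were added after their values were seen. Gene positions are from GENCODE vM21 and promoter sequences from RefSeq (GRCm38.p6).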

Additional observations from a re-analysis of the deposited data

Results flagged for a closer look

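In 45 sets of 4 libraries (a member or the sum of 8, in a group of 4), 5 values, from 4 libraries, stood far from the other 3 by Dixon's criterion, and chance alone gives about 1 in 20. Gbp2 in WT P0 replicate 1 was 0.88 TPM, with the others at 1.88 to 1.97. Gbp3 in Kir P10 replicate 1 was 18.77 TPM, with the others at 34.44 to 35.74, and in the same library the summed TPM of the 8 genes was 36.44, with the others at 54.90 to 57.12. Kcnj2 in that library was 224.41 TPM, against 263.37 to 321.67 in the other 3. Gbp4 in Kir P7 replicate 4 was 1.20 TPM, with the others at 0.15 to 0.21. The summed TPM in Kir P0 replicate 1 was 20.19, with the others at 11.64 to 12.47. Kcnj2 in Kir P0 replicate 1 was 134.08 TPM, within the 108.78 to 181.20 of the others. The causes were not tested.

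The Kir minus WT difference of Gbp3 differed between ages, with an edgeR adjusted p = 0.0179 over the 7 ages, and by 3.47 on the log2 scale of counts between P21 and P0 (edgeR adjusted p = 0.0247). Per-age estimates were above 0 at 6 of the 7 ages, P0 being the exception. Kir against WT results were in view when the members were chosen, so these calls are no independent support. The call over the 7 ages was lost without the prefix term, with limma on TPM and without some single P0 libraries.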

How the results depend on the processing

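Results were recomputed with other scaling factors, tests, pseudocounts and filters, without the prefix term, with WT P0 replicate 3 placed in P3, without low-Kcnj2 or poorly mapped libraries, and without each library in turn. No called change of a member altered its sign. Estimates that were not called did so: in Kir P21 versus P0, 5 of 7 members were positive, and 7 of 7 without the 5 low-Kcnj2 libraries, where Gbp4 and Gbp9 turned positive. In WT P10 versus P5, Gbp3 (0.04), Gbp6 (-0.07), Gbp7 (0.05) and Gbp9 (-0.04) had the opposite sign with limma on log2(TPM + 1). Without single libraries, or for Gbp4 also with the replicate block, Gbp4, Gbp5, Gbp6, Gbp7 and Gbp9 changed sign in one of these comparisons or in WT P21 versus P0. Between P0 and P21 in WT, where 2 members were called, 1 was called with upper-quartile factors, 1 with WT P0 replicate 3 placed in P3, and 0 with limma on log2(TPM + 1) or log2(TPM + 0.1). Leaving out 1 library gave 0 to 3 calls, with 0 without WT P21 replicate 3. For a Kir minus WT difference that varies with age, where 1 member was called, DESeq2 called 2, edgeR without the count filter 2, limma on log2(TPM + 0.1) 0, edgeR without the prefix term 0 and edgeR without the 5 low-Kcnj2 Kir libraries, which leaves 1 Kir library at P21, 3. Leaving out 1 library gave 0 to 2 calls. The cause was not tested. Counts for WT P10 versus P5 (0), Kir P21 versus P0 (2 to 4) and the pathway lists (21 to 24) stayed within 1.5 times the main count.

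Same-numbered libraries had correlated deviations of -0.19 to 0.30 over 13 pairs, over 0.1 in 4. Those 4 included every pair at P3 (0.172, 0.21 and 0.286). Pairing by number was therefore not seen across ages but could hold at P3. With the replicate block, fitted to cry4 libraries only, 3 members were called in WT P21 versus P0, 4 in Kir P21 versus P0, 1 for a difference that varies with age and 21 of the pathway genes. No paired analysis was possible for WT P10 versus P5 because cry6 titles carry no replicate numbers.

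Depth limits Gbp8 (at most 7 reads in a library), Gbp6 (at most 28) and Gbp4 (at most 26), for which a small difference cannot be detected.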
